A study of Mus musculus with 6 samples.

Results

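The potassium channel genes of the postnatal mouse cortex were described here as all rows of the gene table whose symbol is Kcn, then letters, then a number, which gave 92 of 24972 genes. They fall into 20 subfamilies by their letters. Of the 92 genes, 79 were measured well enough to be compared between genotypes, and none passed the test (smallest limma adjusted p = 0.168, for Kcnt1). For 64 of the 79, the 95% interval of the change lay within 1.5-fold in either direction. The levels themselves were spread widely, from Kcnip2, Kcnd2 and Kcna6 near the top to Kcnj1, Kcnmb3 and Kcne1, which were listed at 0 in every library. A further 6 rows start with Kcn but do not match the rule (Kcnd3os, Kcne1l, Kcnmb4os1, Kcnmb4os2, Kcnq1ot1 and Kcnrg) and were not counted as members.

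Potassium channels let potassium ions leave neurons and glia and so hold the resting potential, end action potentials and set how often a neuron fires. Voltage-gated channels (Kv) open with depolarization, calcium- and sodium-activated channels open after activity, inward rectifiers (Kir) and leak channels (K2P) act near rest, and silent and auxiliary subunits change the gating or the transport of the pore-forming ones. In the cortex of rodents many of these currents mature during the first weeks after birth.

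Cortices were dissected at postnatal day 7 and their total RNA was sequenced in 6 libraries, 3 from mice with the genotype Zmiz1f/f, called wildtype (WT), and 3 from Zmiz1f/f;Emx1Cre mice, called Zmiz1-KO. Both groups therefore carry the floxed Zmiz1 alleles, and WT mice lack the Cre recombinase. Emx1-driven Cre acts in the progenitors of cortical excitatory neurons and of part of the glia, so that interneurons, vessels, microglia and meninges of the same tissue are not targeted. The labels also speak of isolated progenitor cells, whereas the methods of the study describe dissected cortex. The sources do not say whether a library stands for 1 animal, so the p-values measure the spread between these samples, which may be technical. Values are normalized counts, and values in a sentence are ordered by replicate 1, 2 and 3.

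Zmiz1, the targeted gene, had 8119, 7929 and 7461 normalized counts in WT and 9944, 9779 and 9660.2 in the Zmiz1-KO-labelled libraries (log2 fold change 0.32, limma adjusted p = 0.00125). This goes against the label, and the table holds no values per exon with which the deleted part could be checked, so the group is called by its label throughout. By Xist and Ddx3y, WT replicate 3 and Zmiz1-KO replicate 2 were female and the other libraries male. The sum of normalized counts per library lay between 32661979 and 33239707, which follows from the normalization and is not the sequencing depth. Markers of excitatory neurons summed to 31457 to 35687 in WT and 31417 to 32776 in the Zmiz1-KO-labelled libraries, so the main neurons of the labelled tissue were present. All 5 had a negative sign (median log2 fold change -0.11), and none was called.

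The question of the comparison was whether the channel genes differ between cortices labelled Zmiz1-KO and WT. A gene was tested where at least 3 libraries had a value of 10 or more, and it was called at a limma adjusted p at or under 0.05, with adjustment over all 15800 genes tested. By this rule 65 of them (0.411%) were called, 26 higher and 39 lower in the Zmiz1-KO-labelled libraries, and 0 of the 79 channel genes. With limma-voom this was also 0. At an unadjusted p at or under 0.05, 14 channel genes (17.7%) passed, 9 higher and 5 lower, beside 11.0% of all genes tested. Without Zmiz1-KO replicate 3 both fell, to 5 channel genes (6.33%) and 7.38% of all genes tested. WT and Zmiz1-KO-labelled values were fully separated for 9 channel genes (11.4%), beside 16.3% of all genes tested. Kcnt1, Kcnip2, Kcnab2, Kcnc4, Kcnj4 and Kcnh4 were the higher ones among these, and Kcnh7, Kcnk4 and Kcnn1 the lower ones.

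The changes lay on both sides of 0. By sign alone, 38 channel genes were higher and 41 lower in the Zmiz1-KO-labelled libraries, and their median log2 fold change was -0.0015 beside -0.00018 over all genes tested. The median size of the change without its sign was 0.10 beside 0.075. The 95% interval, which is not adjusted for the number of genes, lay within 2-fold for 72 genes. It reached past 2-fold for Kcng3, Kcng4, Kcnq3, Kcnk5, Kcnmb1, Kcne2 and Kcne4, so the data do not bound a change of that size in these 7 genes.

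**Figure D1:**
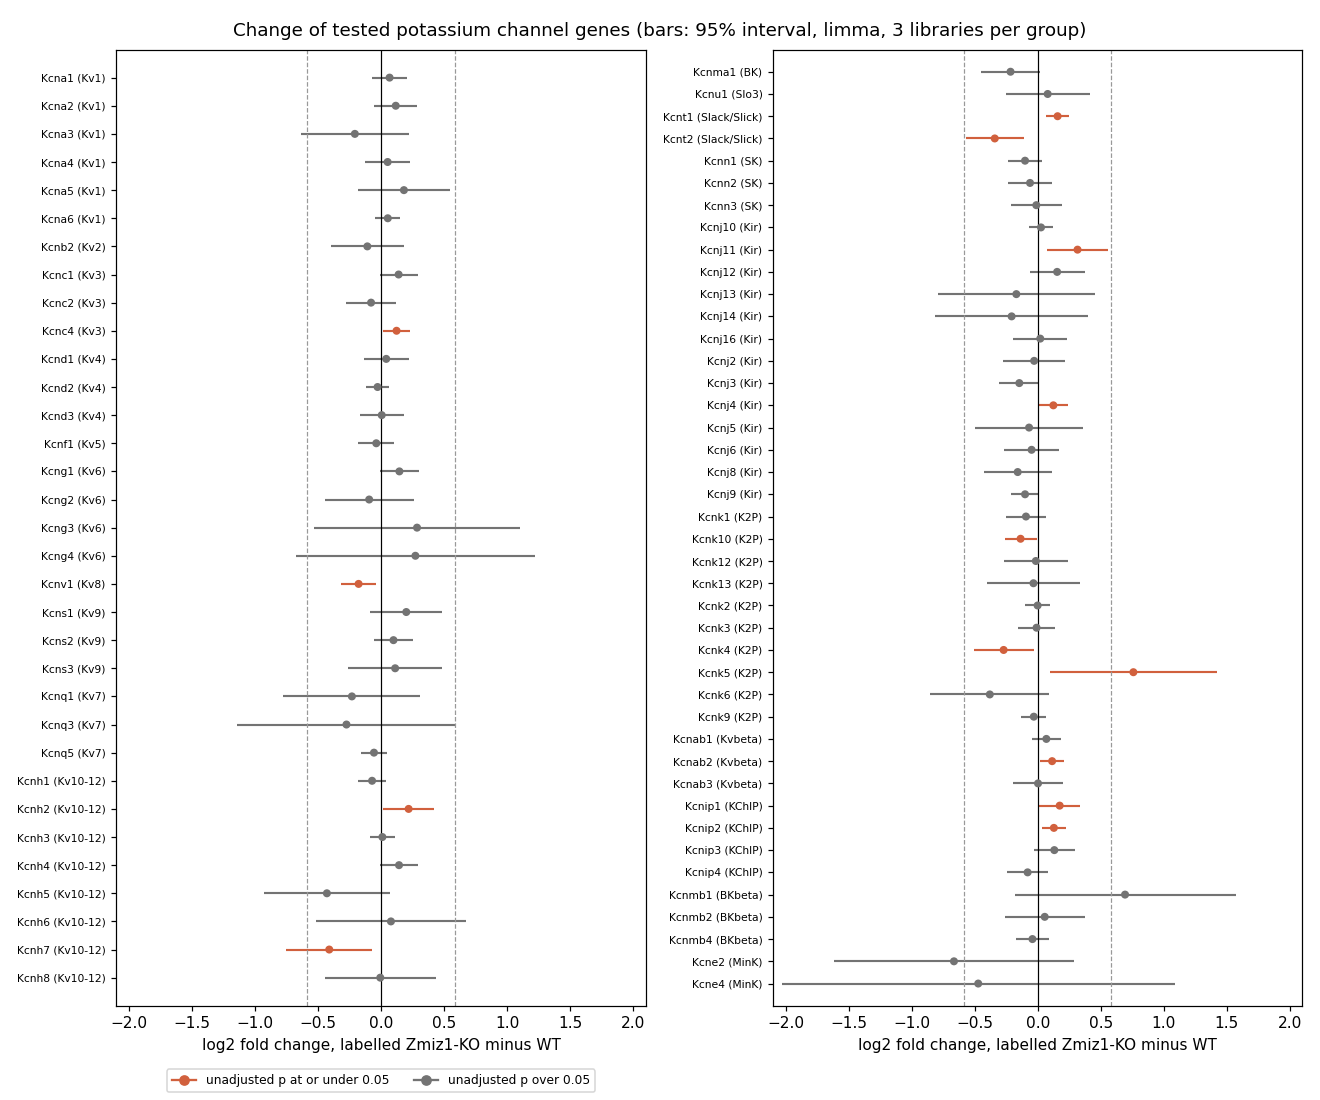
Log2 fold change of 75 tested potassium channel genes, Zmiz1-KO-labelled libraries minus WT (x axis), by gene and subfamily (y axis). Points are limma estimates, bars their 95% interval, dashed lines mark 1.5-fold, and red marks the 14 genes with an unadjusted p at or under 0.05. Most intervals lie between the dashed lines, and the widest belong to genes with few counts, such as Kcne4, and to Kcnq3.

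Markers of other cells moved with the labels and are given here because the tissue is mixed. The summed markers of interneurons were 18007 to 22384 in WT and 23393 to 25167 in the Zmiz1-KO-labelled libraries, higher with no overlap, and all 8 had a positive sign, none of them called. Striatal markers summed to 7161 to 9877 and 10057 to 11295, and meningeal fibroblast markers to 7376 to 8541 and 9618 to 10144 (1 of 4 called), also without overlap. The sum over oligodendrocyte precursor markers was lower, 7577 to 8300 against 7301 to 7549. The sums of the other lists overlapped. Among them were astrocytes (1 of 6 called), fast-spiking interneurons, oligodendrocytes, microglia, endothelial and mural cells, thalamus, hippocampus, choroid plexus and blood. No marker was at 0 in all libraries. The part of these cells in the channel values below was not tested, and in tissue RNA fewer cells of a type and less RNA per cell cannot be told apart.

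Levels were compared between genes as normalized counts per kilobase of exon (per kb), averaged over the 6 libraries. Kcnip2, a calcium-binding partner of Kv4 channels, was at 1030.0 ± 60.7 per kb (SD, n = 6), or at 1495 with the longest RefSeq transcript as the length, and was with either length the highest of the channel genes named here. High levels were also measured for Kcnd2 (768 per kb), Kcna6 (765), Kcnf1 (757), Kcnj4 (729.8) and Kcnh3 (705), whose ranges over the libraries overlapped from gene to gene. Kcnj10 (590.4), Kcnip3 (576), Kcnab2 (571) and Kcnmb4 (507) were lower. This order depended on the length used. With the longest RefSeq transcript the level of 14 of the 79 tested genes was more than 1.5 times as high, and Kcnmb4 (1233), Kcnh3 (1097) and Kcnab2 (812) then stood above Kcna6 (779) and Kcnd2 (768). Levels and orders below use the merged exons of a gene. The 10 highest members together held 40.5% of the summed level per kb of all members. In each subfamily the leading gene was the same with either length. As normalized counts, 34 members averaged 1000 or more. Among the 64 tested members with a mean of at least 100, the highest library was more than 1.5 times the lowest for 6, which were Kcna3, Kcna5, Kcnq3, Kcnh7, Kcnt2 and Kcnk4.

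**Figure D2:**
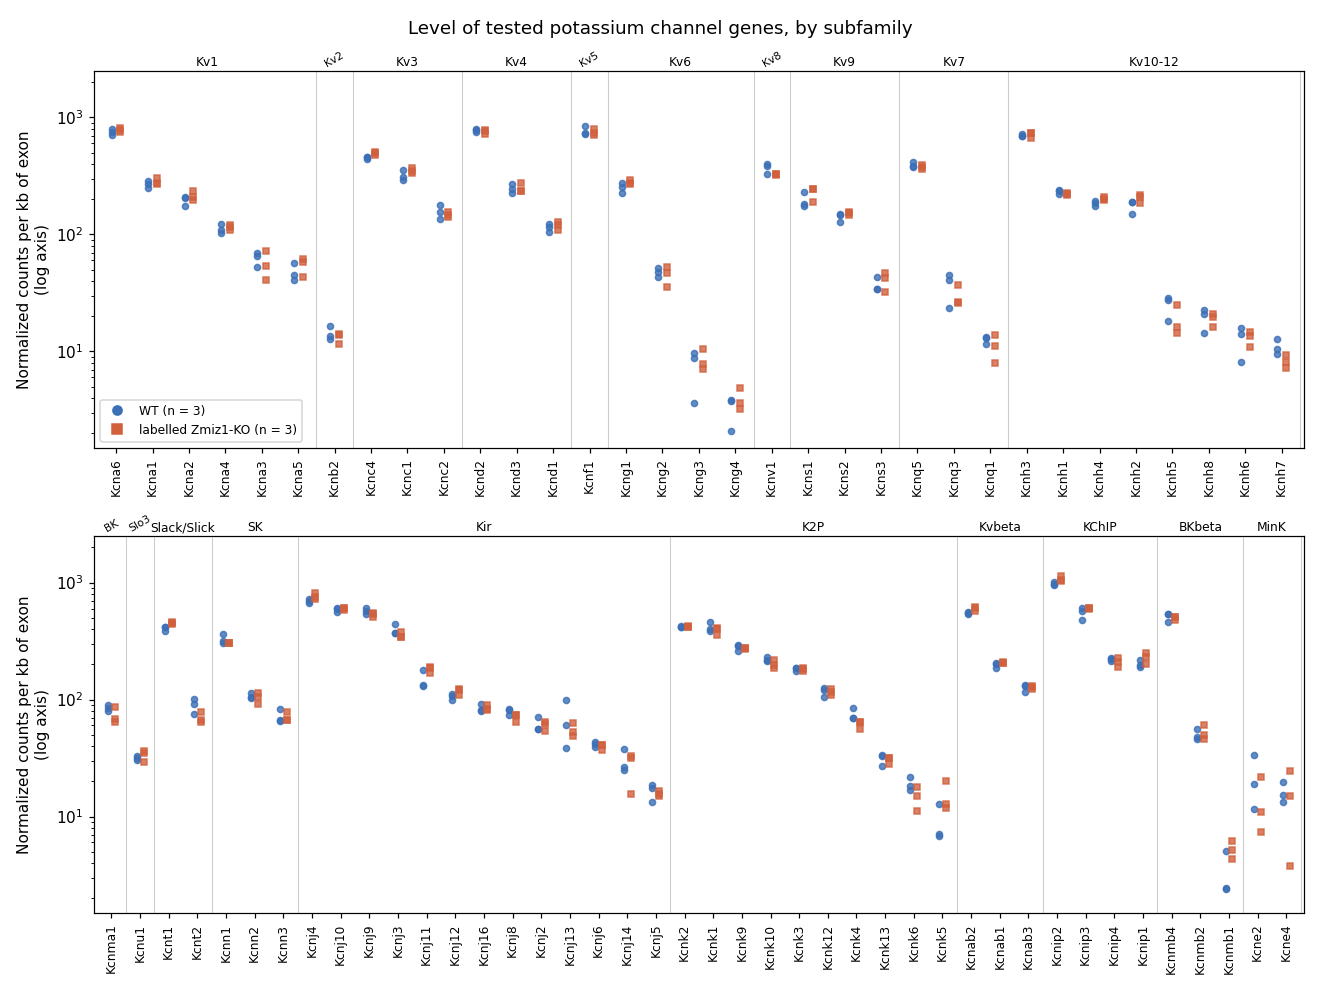
Level of 75 tested genes in normalized counts per kb of exon (log y axis) by gene and subfamily (x axis), with 1 point for each of the 3 WT libraries (circles) and the 3 Zmiz1-KO-labelled libraries (squares). Levels run from about 1030 per kb for Kcnip2 to 3.57 for Kcng4, and the points of a gene are spread most widely for Kcne4 (3.79 to 24.7 per kb) and Kcne2 (7.34 to 33.8).

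The promoters of the RefSeq table (GRCm38.p6, 250 bases before to 50 after a start) were read for what members share beyond their symbol, with the dinucleotide CG as the only motif searched, which reads the same on both strands. A promoter was counted as CpG-rich when CG was found at 0.6 or more of the number expected from its C and G content, using the richest start of a gene. Of 27025 genes with an entry, 38.4% held such a start, and of the 67 members with an entry 25 did (37.3%), 24 of 56 tested (42.9%) and 1 of 11 not tested (9.09%). The entries of all genes were not split into tested and not tested, so the contrast cannot be read as a trait of channel genes. This is a description, and the limit and the promoters shown were chosen after the values were seen. Kcnj4, with 41 CG in 300 bases at a ratio of 0.948, shows the CpG-rich end, and Kcnj1, with 2 at 0.142, belongs to a gene listed at 0. Kcnf1, with 3 at 0.145, is shown because it is CpG-poor although the gene stands among the highest. The sequences are given 5′ to 3′ on the strand of the gene, with each CG in capitals.
Kcnj4, chr15:79505192-79505491, minus strand: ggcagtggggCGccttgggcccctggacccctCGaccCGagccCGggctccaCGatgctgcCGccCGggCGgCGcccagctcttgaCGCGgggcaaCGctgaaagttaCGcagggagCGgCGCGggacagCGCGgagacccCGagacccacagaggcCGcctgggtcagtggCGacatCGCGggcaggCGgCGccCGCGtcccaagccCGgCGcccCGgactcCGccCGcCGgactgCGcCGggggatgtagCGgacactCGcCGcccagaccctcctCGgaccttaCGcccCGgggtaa
Kcnf1, chr12:17176839-17177138, minus strand: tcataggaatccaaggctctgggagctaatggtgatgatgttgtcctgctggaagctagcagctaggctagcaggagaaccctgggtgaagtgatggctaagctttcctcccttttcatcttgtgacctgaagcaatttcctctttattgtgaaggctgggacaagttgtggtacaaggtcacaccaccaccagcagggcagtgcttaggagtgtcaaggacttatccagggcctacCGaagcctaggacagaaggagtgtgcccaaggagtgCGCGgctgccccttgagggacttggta
Kcnj1, chr9:32393735-32394034, plus strand: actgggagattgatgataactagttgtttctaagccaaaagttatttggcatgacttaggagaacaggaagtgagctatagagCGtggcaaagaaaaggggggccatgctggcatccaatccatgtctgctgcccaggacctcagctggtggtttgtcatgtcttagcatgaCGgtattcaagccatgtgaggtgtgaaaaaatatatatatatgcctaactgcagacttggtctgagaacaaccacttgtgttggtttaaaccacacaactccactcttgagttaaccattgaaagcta

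The Kcna genes (Kv1, Shaker type) form the channels of axons that keep spikes short and hold back repeated firing. Of 8 members, 6 were tested and none passed. Kcna6 led with 4478, 4204 and 4711 normalized counts in WT and 4641, 4458 and 4791 in the Zmiz1-KO-labelled libraries, a log2 fold change of 0.053 (95% interval -0.047 to 0.15). The groups overlapped, and 38.4% of its 75-base stretches also occur in Gm26673 on the opposite strand, which the library kit could not tell apart. Kcna1, a Kv1 subunit of axons and presynaptic terminals, had 1202, 1295 and 1358 in WT and 1282, 1456 and 1302 in the Zmiz1-KO-labelled libraries (log2 fold change 0.068, 95% interval -0.070 to 0.21). Kcna2, its common partner in myelinated axons, had 2099.6, 2489 and 2431 in WT and 2336, 2779 and 2494 in the Zmiz1-KO-labelled group (log2 fold change 0.12, 95% interval -0.054 to 0.29), and here too the groups overlapped. In level per kb the order was Kcna6, Kcna1, Kcna2, Kcna4, Kcna3 and Kcna5, of which only Kcna3 and Kcna5 could not be separated by their ranges. Kcna3, best known from lymphocytes and microglia, varied from 77.5 to 136 counts, with overlapping groups. Kcna7 reached at most 6.29, and Kcna10 had 2.01 to 4.12 in WT and was listed at 0 in the Zmiz1-KO-labelled libraries, so neither was tested. On GRCm38 these genes lie in groups: Kcna5, Kcna1 and Kcna6 on chromosome 6, where Kcna1 occupies chr6:126640397-126646384 and Kcna6 follows after 61.9 kb, and Kcna3, Kcna2 and Kcna10 on chromosome 3. Neighbours could differ in level by several fold, as Kcna5 and Kcna1 did at 51.2 and 275 per kb.

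Kcnb2 (Kv2, Shab type), a delayed rectifier, was at 13.7 per kb and ranged from 175 to 252 normalized counts, with overlapping groups (log2 fold change -0.11, 95% interval -0.40 to 0.18).

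All 4 Kcnc genes (Kv3, Shaw type) were tested. These channels close quickly and allow fast trains of spikes, and Kcnc1 and Kcnc2 are known for fast-spiking interneurons. Kcnc4 led with 1617, 1691 and 1699 normalized counts in WT and 1828, 1754 and 1871 in the Zmiz1-KO-labelled libraries. Every Zmiz1-KO-labelled library was above every WT library, with a log2 fold change of 0.12 (95% interval 0.014 to 0.23, limma adjusted p = 0.379). Kcnc1 had 2782, 3392 and 2907 in WT and 3183, 3284 and 3506 in the Zmiz1-KO-labelled libraries (log2 fold change 0.14, 95% interval -0.012 to 0.29), with WT replicate 2 inside the range of the other group. Kcnc2 had 1285, 1109 and 969.5 in WT and 1052, 1118 and 996 in the Zmiz1-KO-labelled group (log2 fold change -0.079, 95% interval -0.28 to 0.12) and overlapped throughout. Per kb of merged exons, Kcnc4, Kcnc1 and Kcnc2 were at 475, 336 and 152, and their ranges did not overlap. With the RefSeq length they stood closer together, at 475, 409 and 370. Summed over the subfamily, the level per kb was 1223 to 1287 in WT and 1308 to 1331 in the Zmiz1-KO-labelled libraries, without overlap. The summed markers of interneurons, striatal neurons and meningeal fibroblasts above were also higher without overlap, and the part of these cells was not tested. The sum over Pvalb, Tac1 and Syt2, markers of fast-spiking interneurons, overlapped at 761 to 1263 and 1106 to 1307.

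The Kcnd genes (Kv4, Shal type) carry the A-type current of dendrites. Kcnd2, among the highest members per kb, had 4040.3, 4071 and 3867 normalized counts in WT and 3752, 4058 and 3943 in the Zmiz1-KO-labelled libraries, a log2 fold change of -0.028 (95% interval -0.12 to 0.066). Kcnd3 had 2153, 2597 and 2344 in WT and 2238, 2627 and 2254 in the Zmiz1-KO-labelled group (log2 fold change 0.0052, 95% interval -0.17 to 0.18). Both overlapped between the groups, and Kcnd1 followed at 117 per kb. The order Kcnd2, Kcnd3, Kcnd1 held in every library.

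The Kcnip genes (KChIP) encode calcium-binding proteins that bring Kv4 channels to the membrane, and Kcnip3 is also known as a transcriptional repressor, DREAM. Kcnip2 had 3346, 3384 and 3533 normalized counts in WT and 3689.8, 3609.8 and 3918 in the Zmiz1-KO-labelled libraries, with means of 3421 ± 98.6 and 3739 ± 160.0 (SD, n = 3). The groups did not overlap, and the log2 fold change was 0.13 (95% interval 0.032 to 0.22, limma adjusted p = 0.294). Kcnip1, known from interneurons, had 1179, 1342 and 1213 in WT and 1246, 1539 and 1438 in the Zmiz1-KO-labelled libraries (log2 fold change 0.17, 95% interval 0.0097 to 0.34, adjusted p = 0.42). Replicate 1 of the Zmiz1-KO-labelled group lay within the WT range. Kcnip3 and Kcnip4 had log2 fold changes of 0.13 and -0.081. While Kcnip2 and Kcnip3 were among the 10 highest members per kb, Kcnip4 and Kcnip1 stood at 215 and 214 (325 and 571 with the RefSeq length). The summed level of the subfamily per kb was 1856 to 2009 in WT and 2079 to 2137 in the Zmiz1-KO-labelled libraries, without overlap. The summed markers of interneurons, striatal neurons and meningeal fibroblasts all moved the same way, and the part of these cells was not tested.

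The silent subunits Kcnf1, Kcng, Kcnv and Kcns (Kv5, Kv6, Kv8 and Kv9) form no channel alone and change the gating of Kv2 channels. Kcnf1 had 4052, 3475 and 3495 normalized counts in WT and 3377, 3838 and 3508 in the Zmiz1-KO-labelled libraries, a log2 fold change of -0.038 (95% interval -0.18 to 0.10). Kcnv1 had 1817, 1498 and 1752 in WT and a narrow 1495, 1503 and 1464 in the Zmiz1-KO-labelled libraries. All the latter lay at or near the lowest WT library, with a log2 fold change of -0.18 (95% interval -0.32 to -0.039, limma adjusted p = 0.31). Kcng1 had 1248, 1011 and 1152 in WT and 1315, 1207 and 1239 in the Zmiz1-KO-labelled group (log2 fold change 0.15, 95% interval -0.0082 to 0.30), where WT replicate 1 exceeded 2 of the 3 Zmiz1-KO-labelled libraries. Kcns1 had 497, 473 and 631 in WT and 665, 512 and 661 in the Zmiz1-KO-labelled libraries (log2 fold change 0.20, 95% interval -0.085 to 0.49). The Kcng sum per kb was 289 to 326 in WT and 332 to 338 in the Zmiz1-KO-labelled libraries, without overlap. Kcng3 and Kcng4 had the least RNA of all tested voltage-gated subunits, at 7.91 and 3.57 per kb, and Kcnv2 reached at most 8.07 counts and was not tested.

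The Kcnq genes (Kv7) form the M current, which muscarinic receptors shut to raise excitability. Kcnq3, a neuronal subunit, had 346, 605 and 666 normalized counts in WT and 386, 539 and 378 in the Zmiz1-KO-labelled libraries. The lowest and the highest library were both WT, and the log2 fold change of -0.27 had a 95% interval of -1.14 to 0.59. In level per kb Kcnq3 was below Kcnq5, at 33.1 ± 9.15 per kb (SD, n = 6) against 384 ± 18.6 (SD, n = 6), with no overlap. Kcnq5 ranged from 2789 to 3202 counts (log2 fold change -0.056, 95% interval -0.16 to 0.050). Kcnq1, the cardiac and epithelial member, was lowest of the subfamily with 32.6 to 56.9 counts.

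The Kcnh genes (ether-a-go-go type, marked Kv10-12 in the plots) were led by Kcnh3, a forebrain channel, with 4007, 4003 and 4116 normalized counts in WT and 4199, 3828 and 4197 in the Zmiz1-KO-labelled libraries (log2 fold change 0.010, 95% interval -0.086 to 0.11). Kcnh7 had the opposite place, lowest of the 8 per kb, with 160.3, 195 and 144 in WT and 123, 109 and 142 in the Zmiz1-KO-labelled libraries. No WT library was as low as the highest of the other group, and the log2 fold change was -0.41 (95% interval -0.75 to -0.071, limma adjusted p = 0.346). Kcnh2, the mouse counterpart of the cardiac hERG channel, had 722, 925 and 909.6 in WT and 906, 1006 and 1050.3 in the Zmiz1-KO-labelled group. WT replicate 1 was the lowest, and the other WT libraries lay at the lower end of the other group (log2 fold change 0.22, 95% interval 0.015 to 0.42, adjusted p = 0.411). Kcnh1 had 1772, 1618 and 1739 in WT and 1593, 1658 and 1626 in the Zmiz1-KO-labelled libraries (log2 fold change -0.071, 95% interval -0.18 to 0.041). Kcnh4 did not overlap between the groups, at 729.9, 687 and 760.2 in WT and 780.2, 794 and 827 in the Zmiz1-KO-labelled group (log2 fold change 0.14, 95% interval -0.0049 to 0.29). Among the 4 lowest, Kcnh5, Kcnh8, Kcnh6 and Kcnh7, the range of each overlapped the next.

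The pair of sodium-activated channel genes stood at opposite sides. Kcnt1 (Slack) and Kcnt2 (Slick) open as sodium enters during firing. Kcnt1 had 3669, 3959 and 3941 normalized counts in WT and 4304, 4350.3 and 4242 in the Zmiz1-KO-labelled libraries, with means of 3856 ± 162 and 4299 ± 54.6 (SD, n = 3). The groups did not overlap, and the log2 fold change of 0.16 (95% interval 0.065 to 0.25) had the smallest adjusted p of all members, 0.168. Kcnt2 had 693, 521 and 627 in WT and 445, 541 and 462 in the Zmiz1-KO-labelled libraries. WT replicate 2 lay within the range of the other group, and the log2 fold change was -0.34 (95% interval -0.57 to -0.11, limma adjusted p = 0.236). Kcnt1 was at 429 per kb and Kcnt2 at 79.5, with no overlap. The sum of both per kb was 487 to 506 in WT and 514 to 536 in the Zmiz1-KO-labelled libraries.

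Calcium-activated channels comprised Kcnma1 (BK), which opens with both calcium and voltage, and the Kcnn genes (SK), which contribute to the afterhyperpolarization. Kcnma1 had 1345, 1426 and 1532 normalized counts in WT and 1101, 1469 and 1159.6 in the Zmiz1-KO-labelled libraries, a log2 fold change of -0.22 (95% interval -0.45 to 0.022, limma adjusted p = 0.505). Replicate 2 of the latter, the female library of its group, lay within the WT range and so against the difference. Without it the log2 fold change was -0.34 and passed (limma adjusted p = 0.0203). Over all alternatives the adjusted p ran from 0.0203 to 0.837. Leaving this library out also raised the number called over all genes from 65 to 152. With a sex covariate Kcnma1 did not pass (limma adjusted p = 0.2), and the cause was not tested. Kcnn1 led its subfamily with 1405, 1443 and 1669 in WT and 1403, 1391 and 1405 in the Zmiz1-KO-labelled libraries (log2 fold change -0.10, 95% interval -0.24 to 0.034). The groups were separated by under 1 count. Kcnn2 had 767, 786 and 842 in WT and 841, 678 and 782 in the Zmiz1-KO-labelled group (log2 fold change -0.061, 95% interval -0.23 to 0.11), and Kcnn3 ranged from 682 to 867. Kcnn4, the channel of blood cells, reached the minimum for the test in a single library and was not tested. Kcnu1 (Slo3), known as a channel of sperm, was measured at 114, 123 and 118 in WT and 137, 109 and 130.0 in the Zmiz1-KO-labelled libraries (log2 fold change 0.079, 95% interval -0.25 to 0.41).

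Among the BK auxiliary genes, Kcnmb4, the neuronal form, had 1808, 1543 and 1785 normalized counts in WT and 1682, 1689 and 1605 in the Zmiz1-KO-labelled libraries (log2 fold change -0.042, 95% interval -0.17 to 0.088). Of its 75-base stretches 28.2% occur in the antisense gene Kcnmb4os2. Per kb it stood at 507, above Kcnma1 itself at 78.9 and Kcnmb2 at 51.0. Kcnmb1, the smooth muscle form, had 10.1 to 25.8 counts, and its gene lies inside Kcnip1 on chromosome 11.

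The Kvbeta genes Kcnab1, Kcnab2 and Kcnab3 encode partners of Kv1 channels. Kcnab2 had 3035, 3022 and 3121 normalized counts in WT and 3162, 3421 and 3352 in the Zmiz1-KO-labelled libraries. Its groups did not overlap, and the log2 fold change was 0.11 (95% interval 0.018 to 0.21, limma adjusted p = 0.353). Kcnab1 had 1740.2, 1779 and 1591 in WT and 1809.5, 1769.9 and 1772 in the Zmiz1-KO-labelled group (log2 fold change 0.068, 95% interval -0.047 to 0.18), and Kcnab3 ranged from 334 to 381. The sum of the 3 genes per kb was 865 to 878 in WT and 905 to 941 in the Zmiz1-KO-labelled libraries, without overlap.

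**Figure D3:**
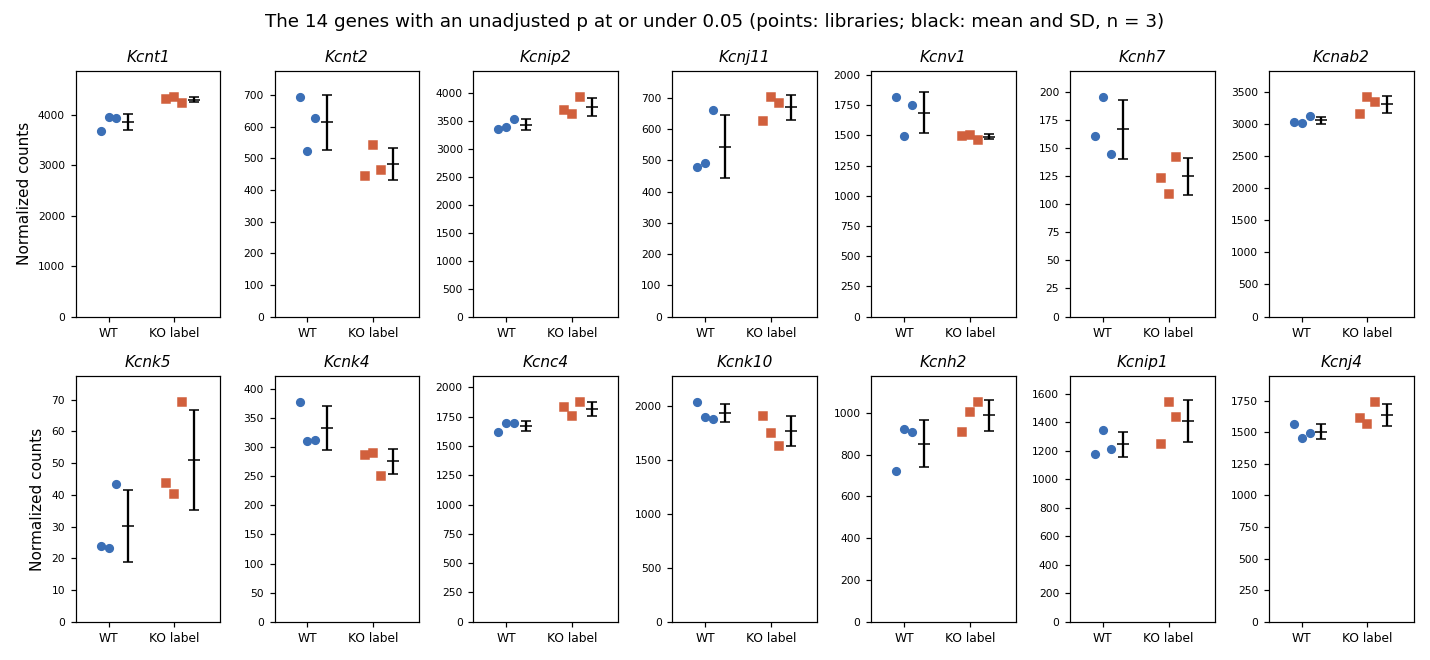
Normalized counts (y axis, from 0) of the 14 genes with an unadjusted p at or under 0.05 in each of 3 WT libraries (circles) and 3 Zmiz1-KO-labelled libraries (squares), with mean and SD beside them. In Kcnt1, Kcnip2, Kcnh7, Kcnab2, Kcnk4, Kcnc4 and Kcnj4 the groups do not overlap, and in the other 7 at least 1 library lies within the range of the other group.

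The Kcnj genes (Kir) were the largest subfamily, with 15 members of which 13 were tested, and held 15.8% of the summed level per kb. Kcnj4, an inward rectifier of forebrain neurons, led with 1567, 1451 and 1491 normalized counts in WT and 1611, 1567 and 1736 in the Zmiz1-KO-labelled libraries. The lowest Zmiz1-KO-labelled library exceeded the highest WT library by under 1 count, and the log2 fold change was 0.12 (95% interval 0.0039 to 0.24, limma adjusted p = 0.435). Kcnj10, the channel through which astrocytes take up potassium, had 3018, 3276 and 3200.3 in WT and 3278, 3125 and 3257 in the Zmiz1-KO-labelled libraries (log2 fold change 0.026, 95% interval -0.072 to 0.12), and Kcnj16, its partner, ranged from 314 to 361. The sum of astrocyte markers overlapped as well, at 62465 to 67141 and 56920 to 64713, although 1 of the 6 markers was called. Kcnj9, one of the G protein-gated subunits and the neighbour of Kcnj10 at 11.9 kb on chromosome 1, could not be separated from it by level per kb (554 and 590.4). Of the other G protein-gated subunits, Kcnj3 stood at 374 per kb, Kcnj6 at 40.5 and Kcnj5 at 16.1, and their log2 fold changes were -0.15, -0.049 and -0.069. For Kcnj3, 28.3% of the stretches occur in the antisense gene Gm26794.

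Kcnj11 and Kcnj8 encode the pores of channels that ATP closes. Kcnj11 had 479.7, 491 and 661 normalized counts in WT and 626, 703 and 683 in the Zmiz1-KO-labelled libraries, a log2 fold change of 0.32 (95% interval 0.073 to 0.56, limma adjusted p = 0.309). WT replicate 3 lay within the range of the other group and so against the difference. Without it the log2 fold change was 0.46 and passed (limma adjusted p = 0.0389). Over all alternatives the adjusted p ran from 0.0389 to 0.676. WT replicate 3 is also the only female WT library. With a sex covariate Kcnj11 did not pass (limma adjusted p = 0.169), and the cause was not tested. Kcnj8, the form of pericytes, ranged from 164 to 210.3 (log2 fold change -0.16, 95% interval -0.43 to 0.11). Kcnj1, the channel of the kidney, was listed at 0 throughout, and Kcnj15 reached 12.3 at most.

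The Kcnk genes (K2P) set the leak conductance. Of 14 members, 10 were tested, and 9 of these had a negative sign, beside 41 of all 79 channel genes tested. Some of these changes were close to 0, as for Kcnk2, Kcnk3 (log2 fold change -0.0097) and Kcnk12 (-0.015). The median over the 10 was -0.033. Kcnk2 (TREK-1), which led per kb, had 2054, 2075 and 2119.8 normalized counts in WT and 2066, 2077 and 2099.7 in the Zmiz1-KO-labelled libraries (log2 fold change -0.0012, 95% interval -0.10 to 0.10). Kcnk1 (TWIK-1) had 1022, 902 and 864 in WT and 914, 895 and 801 in the Zmiz1-KO-labelled group (log2 fold change -0.094, 95% interval -0.26 to 0.068), and both genes overlapped between the groups. Kcnk4 (TRAAK), a mechanically gated relative of Kcnk2, had 377, 310.3 and 312 in WT and 286, 289 and 250.1 in the Zmiz1-KO-labelled libraries. All WT libraries were higher, and the log2 fold change was -0.27 (95% interval -0.51 to -0.033, limma adjusted p = 0.377). Its exons overlap those of Catsperz on the same strand, with 11.9% of its stretches shared. Kcnk10 (TREK-2) had 2029.6, 1897 and 1874 in WT and 1906, 1748 and 1629.9 in the Zmiz1-KO-labelled libraries, where replicate 1 lay within the WT range (log2 fold change -0.14, 95% interval -0.26 to -0.0098, adjusted p = 0.408). Kcnk5 was the exception in sign. It had 24.0, 23.1 and 43.3 in WT and 43.6, 40.3 and 69.1 in the Zmiz1-KO-labelled libraries, the largest log2 fold change of any member at 0.76 (95% interval 0.094 to 1.42, adjusted p = 0.375), at few counts and with overlapping groups. The summed level per kb of the subfamily was 1740.2 to 1818 in WT and 1676 to 1733 in the Zmiz1-KO-labelled libraries, lower without overlap.

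**Figure D4:**
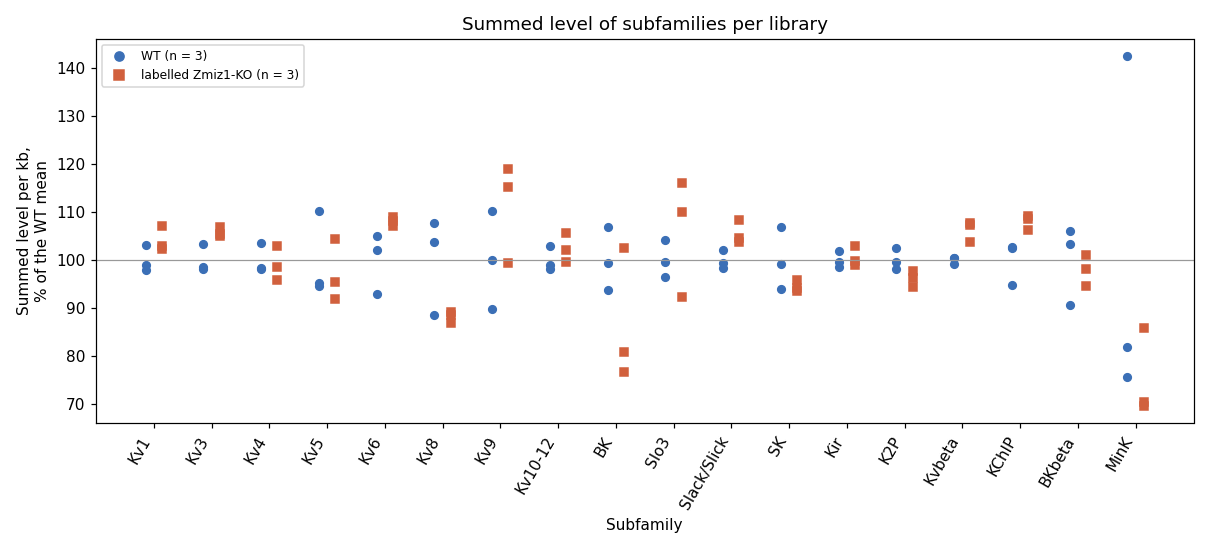
Summed level per kb of 18 of the 20 subfamilies (x axis) in each library as a percent of the WT mean (y axis, not starting at 0), for 3 WT libraries (circles) and 3 labelled Zmiz1-KO (squares). The groups do not overlap for Kv3, Kv6, Slack/Slick, Kvbeta and KChIP, where the Zmiz1-KO-labelled libraries are higher, and for K2P, where they are lower, and MinK has the widest spread.

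Between subfamilies, these sums overlapped between the groups in all but 5 that were higher (Kv3, Kv6, Slack/Slick, Kvbeta and KChIP) and 1 that was lower (K2P). Each sum is weighted towards its most abundant gene, and the sums were not tested. Of these leading genes, Kcnc4, Kcnt1, Kcnab2 and Kcnip2 were separated as single genes too, while Kcng1 and Kcnk2 overlapped. Among single genes, 16.3% of all tested were separated. No such share was measured for sums of other genes, so the number of separated sums has no background beside it. The MinK sum, from the Kcne genes, varied most.

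Kcne2 and Kcnj13 were read beside the markers of another tissue. Both are known from the choroid plexus, the epithelium that makes cerebrospinal fluid, and the summed choroid plexus markers (Ttr, Folr1, Clic6, Kl and Otx2) were 247, 8302 and 6300.0 in WT and 3151, 324 and 4787 in the Zmiz1-KO-labelled libraries. Kcne2 had 20.5, 59.7 and 33.3 normalized counts in WT and 19.3, 13.0 and 38.6 in the Zmiz1-KO-labelled libraries (log2 fold change -0.67, 95% interval -1.61 to 0.28). Kcnj13 had 48.5, 125 and 77.3 in WT and 61.5, 67.0 and 79.7 in the Zmiz1-KO-labelled group (log2 fold change -0.17, 95% interval -0.79 to 0.45). WT replicate 2 was highest in all of these measures, WT replicate 1 was lowest in the marker sum and Kcnj13, and Zmiz1-KO replicate 2 was lowest in Kcne2. For Kcnj13, 38.9% of the stretches occur in Gigyf2 on the opposite strand. The part of choroid plexus RNA in both genes was not tested. Kcne4 ranged from 10.1 to 65.7 within the Zmiz1-KO-labelled libraries alone, Kcne3 reached 5.08 at most, and Kcne1 was listed at 0.

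**Figure D5:**
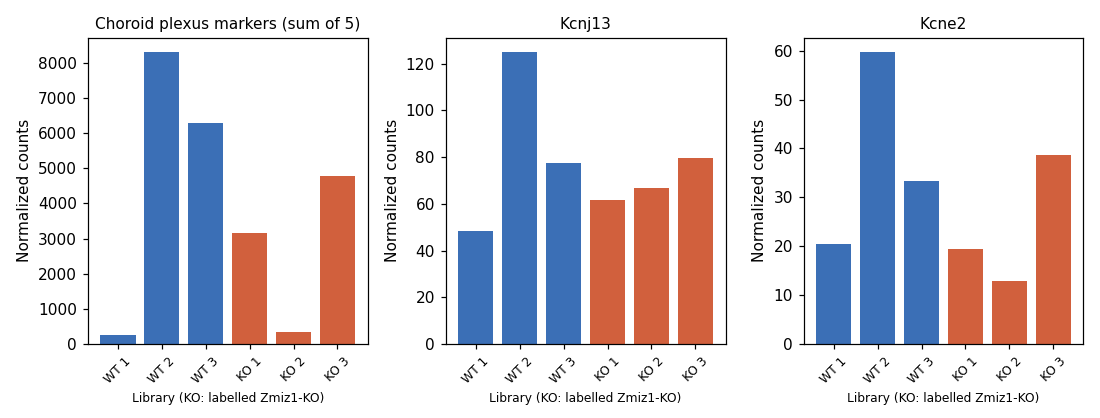
Normalized counts (y axes, from 0) of the summed choroid plexus markers, Kcnj13 and Kcne2 in each of the 6 libraries (x axes, WT in blue, labelled Zmiz1-KO in red). WT replicate 2 has the highest bar in all 3 panels, and the marker sum runs from 247 to 8302 within WT.

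Genes that work with potassium channels without carrying such a symbol were counted as a list of 40, of which 39 were tested. Of these, 1 was called (2.56%), beside 0.411% of all genes tested. An unadjusted limma p at or under 0.05 was found for 10 of the 39 (5 higher, 5 lower), beside 11.0% of all genes tested. The groups did not overlap for 8 of the 39 (5 higher, 3 lower), beside 16.3%. The median log2 fold change of the 39 genes was 0.0042. The count of called genes was 0 without WT replicate 2 or 3 or Zmiz1-KO replicate 1 or 3. Hcn2, a channel of the h current, had 2130.4, 2266 and 2372 in WT and 2574, 2501 and 2690.3 in the Zmiz1-KO-labelled libraries, without overlap (log2 fold change 0.20, adjusted p = 0.133). Dpp6 and Dpp10, which like the Kcnip genes encode auxiliary proteins of Kv4 channels, had opposite signs. Dpp6 had 7877, 7985 and 7547 in WT and 8449, 8785 and 8377 in the Zmiz1-KO-labelled group, again without overlap (log2 fold change 0.13, adjusted p = 0.216), and Dpp10 had 3915, 3352 and 3586 in WT and 3363, 3352 and 3148 in the Zmiz1-KO-labelled group, with overlap (log2 fold change -0.14, adjusted p = 0.356). Cntn2 and Adam22, which gather Kv1 channels on axons, lay lower in all 3 Zmiz1-KO-labelled libraries, with log2 fold changes of -0.14 (adjusted p = 0.24) and -0.10 (adjusted p = 0.306). The other genes listed for Kv1 clustering went both ways. Lgi1 (log2 fold change 0.075), Cntnap1 (0.052), Cntnap2 (0.099) and Dlg4 (0.038) had a positive sign, and Dlg1 and Dlg2 (both -0.070) a negative one. Among these, Lgi1 was higher and Dlg2 lower without overlap. Abcc9, the sulfonylurea receptor of vessels, overlapped between the groups at -0.32 (adjusted p = 0.291).

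Some member values rest on reads that other genes could share. For 7 members, more than 10% of the 75-base stretches of their transcripts also occur in another gene, among them Kcna6, Kcnj3, Kcnj13, Kcnj14, Kcnk4 and Kcnmb4. For 26 members an exon overlaps one of another gene on the opposite strand, which these libraries cannot resolve.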

How the data were processed

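Total RNA from cortices at postnatal day 7 was sequenced in 6 libraries (3 per group). The authors aligned the reads to mm10 with STAR, obtained counts per gene and scaled them by DESeq2, all within Illumina BaseSpace. The deposited table holds this normalized signal for 24972 genes, called normalized counts in the text. Tool versions, the gene annotation and the depth per library are not given in the sources used here. Since the values are not whole counts, the count test of the study could not be repeated, so limma (version 3.58.1, R version 4.3.3) with an intensity trend and robust estimation was fitted to log2(value + 1) of the 15800 genes that reached 10 in 3 or more libraries, without covariates. P-values are two-sided with Benjamini-Hochberg adjustment over these genes. An exact permutation test of 3 against 3 libraries cannot give a p below 0.1. The procedure was tested on simulated data.

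Libraries were grouped by the labels. Members are the rows matching the symbol rule, grouped by their letters. Values in every library were given for members with an unadjusted p at or under 0.05, for the highest member per kb of each subfamily, and for 20 genes listed by name, and Kcnh4, Kcnj13 and the partner genes named in the text were picked later, with these values known. Counts, medians and sums cover all members, and some single genes are not reported here. The members, the lists of markers and partner genes and the alternatives were chosen with earlier results of these data known. Exon lengths, overlaps and shared 75-base stretches are from GENCODE on GRCm38, which is the mm10 build, and promoters from RefSeq, where 67 of 92 members matched by symbol. The alternatives were limma-voom, other scalings, pseudocounts, filters and thresholds, no robust estimation, a replicate block, a sex covariate, each library left out in turn and, added after the data were seen, another transcript length. The plots were made in Python (version 3.11.15) with matplotlib (version 3.10.9).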

Additional observations from a re-analysis of the deposited data

How the results depend on the processing

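No channel gene was called under any alternative that kept all 6 libraries. With each library left out in turn 0 to 1 were called, which was Kcnj11 without WT replicate 3 and Kcnma1 without Zmiz1-KO replicate 2, and the cause was not tested. Over all genes the number called was 65, and it was 106 at an adjusted p of 0.1, 17 without robust estimation, and 12 to 152 with a library left out (30 without WT replicate 1, 17 without Zmiz1-KO replicate 1, 152 without Zmiz1-KO replicate 2 and 12 without Zmiz1-KO replicate 3). With the replicate number as a block, 168 genes and 0 channel genes were called, and 21 channel genes had an unadjusted p at or under 0.05, against 14 without the block. Whether the numbers pair the libraries is not known. Deviations of libraries with the same number correlated at -0.0051, -0.1127 and -0.0063 over all genes. Over the channel genes they correlated at 0.2394, 0.0447 and 0.2602. Libraries with different numbers correlated at -0.0961 to 0.1063 over all genes and at -0.4439 to 0.1074 over the channel genes. Since the deviations were taken from the mean of 3 libraries, these correlations depend on each other and cannot settle whether libraries were paired. The number of channel genes without overlap was 9, and 14 to 25 with a library left out, where fewer values have to be separated. Of the partner genes 1 was called, with 0 without robust estimation, 2 with the block (Hcn2 among them) and 0 to 1 with a library left out. The median over the channel genes stayed between -0.0087 and 0.0060. Of 629 values of 37 named channel genes under 17 alternatives, 611 kept their direction and their side of the threshold, and the signs of 8 genes near 0 turned. Kcnk2 was 0.0046 with limma-voom, 0.0049 with upper-quartile scaling and 0.0086 with quantile normalization. With a library left out the log2 fold change ranged from -0.1794 to 0.0238 for Kcnc2, -0.0535 to 0.0030 for Kcnd2, -0.0701 to 0.0749 for Kcnd3, -0.0905 to 0.0345 for Kcnf1, -0.0119 to 0.0548 for Kcnh3, -0.0082 to 0.0509 for Kcnj10, -0.0114 to 0.0115 for Kcnk2 and -0.1307 to 0.0245 for Kcnn2. With only 3 libraries per group and no read counts, small changes and those of genes with few counts were not detectable.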

Other observations

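Kcnu1 (Slo3), which is known as a channel of sperm, had between 109 and 137 normalized counts in every library, more than Kcnh7 per kb (32.6 and 9.57). By the annotation its exons overlap no other gene and it shares no 75-base stretches with one.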
